A study of Mus musculus with 4 samples.

Results

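The 4 Hox clusters were examined through the CpG island array probes that lie in a window around each of them in mouse embryonic stem cells. The windows were chr6:51900000-52400000 for Hoxa, chr11:95800000-96400000 for Hoxb, chr15:102500000-103100000 for Hoxc and chr2:74200000-74800000 for Hoxd, at positions as the array files give them. Those files name no genome build, and the windows were drawn for positions that fit mouse build mm8. Every probe in a window other than control spots was taken, and probes whose starts were at most 500 bp apart were joined into a region. This gave 100 regions with 608 probes, of 15053 regions with 97179 probes on the whole array. Of the 100, 97 held at least 3 probes and were tested, of 14121 such regions in all: 23 in the Hoxa window, 27 in Hoxb, 25 in Hoxc and 22 in Hoxd. Membership was set by position.

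The samples were 4, with 1 array each: wild type J1 embryonic stem cells; Parp-1 deficient clones 210-58 and 226-47, both derived from J1; and J1 cells treated with the PARP inhibitor PJ34. All therefore share the J1 background, each deficient line is a single clone, and no source used here gives the dose or duration of PJ34. DNA methylation was measured by methylated DNA immunoprecipitation (MeDIP): sonicated DNA was captured by an antibody that binds 5-methylcytidine and carried Cy5, and it was hybridised with uncaptured whole DNA of that sample, which carried Cy3. The level of a region is the mean over its probes of log2 Cy5 over Cy3, centred on the median probe of its array, so 0 is a typical probe of the array and not a stated share of methylated cytosines. The labels do not tell how the clones were derived relative to each other. The p-values rest only on the spread between the 2 clone arrays, largely pooled over all tested regions. They do not measure how closely the clones agree at a single region. The arrays measure DNA, so the identity of the cells could not be checked against RNA markers, and the Parp1 locus was not examined here.

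Hox genes encode homeodomain transcription factors that give cells along the head-to-tail axis of the embryo their positional identity. Their order within each cluster follows the order in which they are used in time and along the axis, with the high-numbered genes acting latest and most posteriorly. The clusters are unusually rich in CpG islands, and in embryonic stem cells they are held silent mainly by Polycomb group proteins, while most of their islands carry little DNA methylation. In the nucleus, the enzyme Parp-1 builds poly(ADP-ribose) chains on itself and on chromatin proteins, and PJ34 inhibits this reaction. Of the member genes, 38 were listed, and all 38 were found in the RefSeq gene table for GRCm38.p6. In that table Hoxa genes run from Hoxa2 to Hoxa13 with rising position, whereas the other clusters run from their high-numbered genes (Hoxb13, Hoxc13 and Hoxd13) to Hoxb1, Hoxc4 and Hoxd1. The array positions belong to another build, so no region was assigned to a single gene, and regions are called by window, number in order of position and coordinates.

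The antibody can only bind methylated cytosine, which in mammalian DNA lies mainly in CG dinucleotides, so the number of CGs sets how much of a promoter it could bind. RefSeq promoters for GRCm38.p6 were at hand for 24 start sites of 22 of the 38 genes. In the 250 bases upstream of the start, these held a median of 12.5 CGs, against 6 over 32851 mouse promoters; 15 of the 24 (62.5%) had 10 or more, against 37.8% of all. By cluster there were 10 start sites for Hoxa (3 to 35 CGs), 10 for Hoxd (2 to 31), 3 for Hoxb (7 to 14) and 1 for Hoxc (8), too few to compare the clusters. The 5 promoters shown span the range among the member genes: the richest, of Hoxa13 and Hoxd13, those of Hoxb4 and Hoxc4 between, and an upstream start of Hoxd11 as the poorest. Each runs from 5′ to 3′ on the gene's strand, with every CG in capitals.
Hoxa13 (chr6:52260881-52261130, minus strand): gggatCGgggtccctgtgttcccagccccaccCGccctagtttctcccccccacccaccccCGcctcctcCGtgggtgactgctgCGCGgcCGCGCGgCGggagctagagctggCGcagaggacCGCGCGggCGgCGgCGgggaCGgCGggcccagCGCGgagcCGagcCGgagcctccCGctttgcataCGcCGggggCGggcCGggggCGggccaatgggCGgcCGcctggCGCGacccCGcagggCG
Hoxd13 (chr2:74667975-74668224, plus strand): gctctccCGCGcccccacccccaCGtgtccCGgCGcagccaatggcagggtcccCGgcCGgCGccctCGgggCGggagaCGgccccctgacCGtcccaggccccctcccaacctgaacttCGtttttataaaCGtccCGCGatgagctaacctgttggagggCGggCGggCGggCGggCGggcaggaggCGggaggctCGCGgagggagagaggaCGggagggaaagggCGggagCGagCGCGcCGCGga
Hoxb4 (chr11:96318017-96318266, plus strand): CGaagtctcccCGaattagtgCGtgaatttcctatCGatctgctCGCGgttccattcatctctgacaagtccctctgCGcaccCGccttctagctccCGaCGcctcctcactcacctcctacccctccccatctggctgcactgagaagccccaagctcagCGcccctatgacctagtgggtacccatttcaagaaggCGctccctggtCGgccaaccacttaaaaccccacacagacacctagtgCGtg
Hoxc4 (chr15:103034145-103034394, plus strand): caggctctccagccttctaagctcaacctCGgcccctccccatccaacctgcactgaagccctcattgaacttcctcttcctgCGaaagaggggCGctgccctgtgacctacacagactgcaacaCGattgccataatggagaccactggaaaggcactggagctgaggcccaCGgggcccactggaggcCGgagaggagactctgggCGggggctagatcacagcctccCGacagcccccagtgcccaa
Hoxd11 (chr2:74679308-74679557, plus strand): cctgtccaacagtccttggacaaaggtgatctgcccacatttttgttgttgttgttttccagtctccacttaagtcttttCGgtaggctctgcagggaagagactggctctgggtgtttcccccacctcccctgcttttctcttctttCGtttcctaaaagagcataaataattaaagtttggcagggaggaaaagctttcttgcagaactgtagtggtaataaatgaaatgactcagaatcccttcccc
The Hoxa13 stretch holds 35 CGs and that of Hoxd13 holds 31, those of Hoxb4 and Hoxc4 hold 14 and 8, and that of Hoxd11 holds 2. None of these stretches was matched to a probe, since the files give no probe sequences in a form used here.

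In wild type cells the Hox windows were not set apart from the rest of the array by their overall level. The median of the 97 regions was 0.02, against -0.01 over all 14121 regions. A level of 2 or more was reached by 7 Hox regions (7.22%, against 9.94% of all regions), and 15 lay at -1 or less (15.5%, against 12.8%). The windows differed from each other: the Hoxa median was -0.48, with 16 of 23 regions below 0, while the medians were 0.08 in Hoxb, 0.24 in Hoxc and 0.07 in Hoxd. No Hoxa region reached 2 in wild type cells, and the other windows held 3, 2 and 2 such regions. Levels differed sharply from one region to the next, with a median step of 0.97 between neighbours in the wild type array and a largest step of 4.22.

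**Figure D1:**
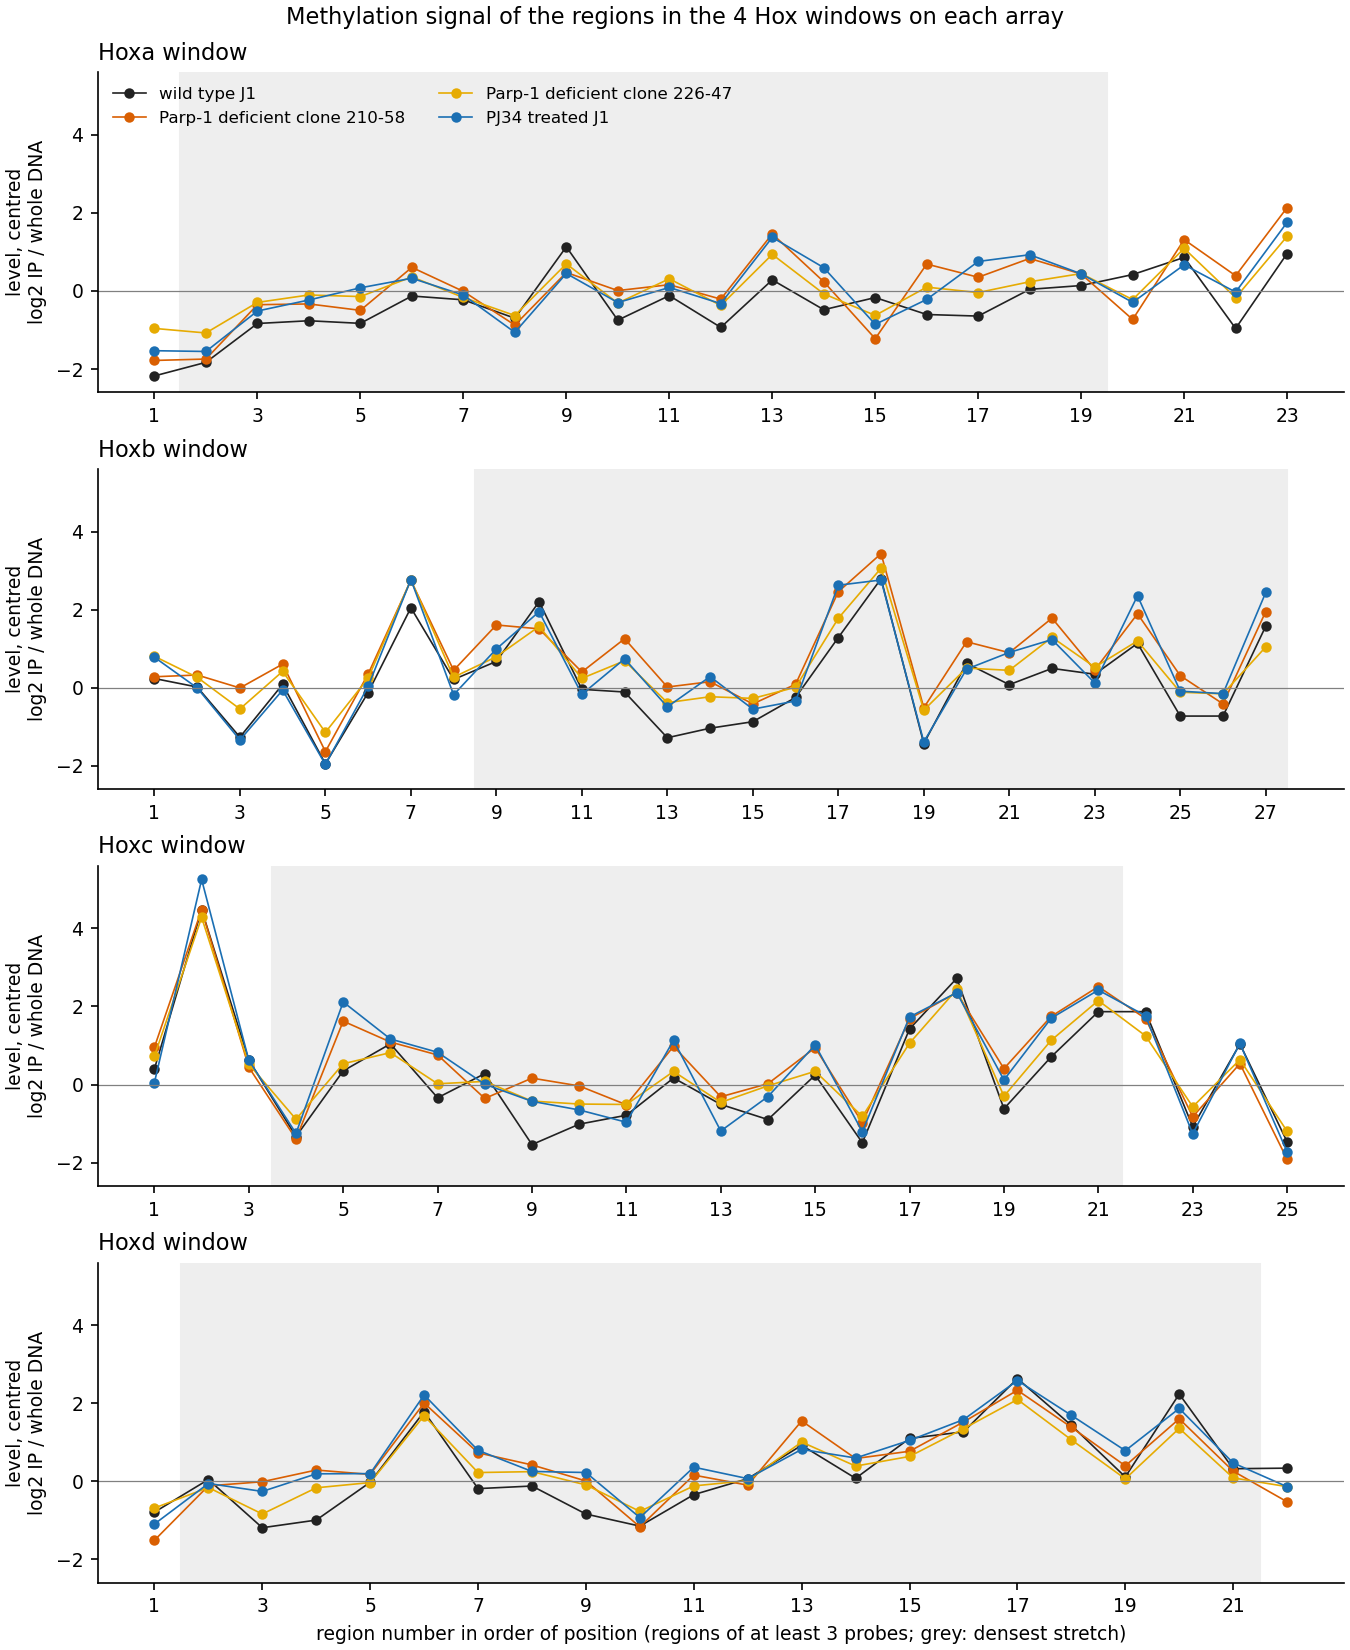
Level of each tested Hox region (vertical axis, mean centred log2 of immunoprecipitated over whole DNA) in order of position (horizontal axis, region number within the window), with 1 point per array, lines joining neighbouring regions and grey marking the stretch in which starts are at most 25 kb apart. Most Hoxa regions lie below 0 in the wild type array, and isolated regions of the other windows stand above 2 on every array.

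The highest region of all 4 windows lay near the low end of the Hoxc window. Hoxc region 2 (chr15:102565402-102565704, 3 probes) stood at 4.48 in wild type cells, 4.48 in clone 210-58, 4.28 in clone 226-47 and 5.25 after PJ34, and its wild type level exceeded that of 99.5% of all regions. It lies outside the dense stretch of Hoxc islands, which begins further along the chromosome. Hoxc region 18 (chr15:102860652-102861048) held 2.72, 2.35, 2.43 and 2.35 on the same arrays in that order, and Hoxc region 21 (chr15:102887330-102887754) held 1.87, 2.51, 2.15 and 2.42. These regions were high in all 4 samples, whatever the state of Parp-1.

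In the Hoxb window the highest was region 18 (chr11:96130538-96131138, 5 probes), with 2.79 in wild type cells, 3.43 in clone 210-58, 3.06 in clone 226-47 and 2.76 in treated cells. Hoxb region 7 (chr11:95991506-95991829) stood at 2.05 in wild type and at 2.75, 2.76 and 2.77 in clone 210-58, clone 226-47 and PJ34 treated cells, which were nearly equal to each other. Hoxb region 17 (chr11:96120959-96121386) spread more, with 1.29, 2.46, 1.78 and 2.62 in the same order. The Hoxd window had a run of raised regions toward its high end: regions 15 to 18 and 20, between positions 74528074 and 74554344, lay between 1.10 and 2.63 in wild type cells, a stretch picked out after its values were seen. At its top, Hoxd region 17 (chr2:74541324-74541606) held 2.63, 2.33, 2.10 and 2.58, and region 20 (chr2:74553683-74554344) held 2.23, 1.60, 1.36 and 1.87. Wild type was the highest of the 4 arrays in both. Hoxd region 6 (chr2:74475969-74476440) stood apart from low neighbours at 1.78, 2.0, 1.68 and 2.21.

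The Hoxa window had no comparable peak. Its highest regions by the mean of all arrays were region 23 (chr6:52246098-52246404), at 0.96, 2.13, 1.40 and 1.76, region 13 (chr6:52158590-52160526), at 0.28, 1.46, 0.94 and 1.37, and region 21 (chr6:52240007-52240450), at 0.86, 1.31, 1.09 and 0.67. Of these, regions 21 and 23 lie outside the dense stretch of Hoxa islands, which ends at position 52190827. Hoxa also held the lowest region of the windows in wild type cells, region 1 (chr6:51941740-51942433), at -2.18, -1.78, -0.96 and -1.53, a level under which only 0.446% of all regions lay. Its next lowest, region 2 (chr6:52087848-52088619), stood at -1.83, -1.74, -1.08 and -1.55. In both of these, clone 226-47 was the highest array, and the spread of levels over all regions was also narrower on that array, where 4.37% of regions lay at -1 or less.

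Low regions were found in every window. In Hoxb the lowest were region 5 (chr11:95891770-95892178), at -1.95, -1.64, -1.14 and -1.97, and region 19 (chr11:96134843-96135321), at -1.43, -0.51, -0.57 and -1.39, which lies a few kilobases from the high region 18. The lowest Hoxc regions were region 4 (chr15:102749463-102750298), at -1.33, -1.40, -0.89 and -1.25, and region 25 (chr15:103067313-103068799), at -1.47, -1.92, -1.20 and -1.73. For Hoxd they were region 1 (chr2:74379278-74380087), at -0.79, -1.51, -0.69 and -1.09, and region 10 (chr2:74492232-74492727), at -1.15, -1.17, -0.77 and -0.93. Low levels are the least precise, because the Cy5 signal is then weak: each of these 8 low regions had at least 1 probe whose Cy5 was not well above background on some array, although no Hox region lacked a bright probe on any array and 71 of the 97 had all probes bright on all 4.

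The first comparison asked whether cells that lack Parp-1 differ from wild type in methylation over the Hox windows. They were higher there: both clones had raised levels over most Hox regions, by a median of 0.46 on the log2 scale in clone 210-58 and 0.31 in clone 226-47. Above wild type were 74 of 97 regions in clone 210-58, where 45.6% of all regions were, and 72 of 97 in clone 226-47, where 56.8% of all regions were. Over all 14121 regions the median differences were -0.05 and 0.07. Long islands of at least 15 probes outside the windows, 532 in number, had medians of 0.12 and 0.23, with 61.7% and 77.1% of them above wild type. In clone 226-47 the share of Hox regions above wild type (74.2%) was thus no larger than that of long islands. The 2 sets are unlike in level, with wild type medians of 0.02 for Hox regions and -0.32 for long islands. In that clone 29.9% of Hox regions and 14.5% of long islands were higher by at least 0.5, and 6.19% and 3.57% were lower by as much. Regions of a window lie on the same arrays and are not replicates, so these shares describe the 4 arrays and were not tested.

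Both clones were tested against wild type with limma's moderated test, and p-values were adjusted by the Benjamini-Hochberg method over the 14121 regions. It called 5 Hox regions (5.15%), where 2.78% of all regions were called. All 5 were higher in the clones, against 1.19% of all regions, and none was lower, against 1.59%. At an unadjusted p below 0.05, 26 Hox regions were higher and 3 were lower, against 5.54% and 6.45% of all regions. The 5 called regions were spread over all 4 windows, 2 of them in Hoxa, and all lay below 0 in wild type cells.

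The largest rise was at Hoxc region 9 (chr15:102782285-102783403, 7 probes). It held -1.54 in wild type cells, 0.16 in clone 210-58, -0.42 in clone 226-47 and -0.43 after PJ34, so wild type was by far the lowest array. The mean of the clones exceeded wild type by 1.41 (SE 0.37, limma adjusted p = 0.00837), and all 7 probes were above wild type in each of the other arrays. Hoxb region 12 (chr11:96099086-96099499, 4 probes) rose from -0.11 to 1.25 in clone 210-58 and 0.69 in clone 226-47, and stood at 0.74 after PJ34. The clone mean was 1.08 higher (SE 0.30, limma adjusted p = 0.0194), with all 4 probes above wild type in both clones. The whole DNA signal of the Hoxb window was itself 0.49 higher in clone 210-58, and its part in this difference was not tested.

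Hoxa region 22 (chr6:52242929-52244433), which with 15 probes is among the longest islands in the windows, went from -0.96 to 0.39 and -0.17 in the clones and to -0.03 after PJ34. It lies outside the dense stretch of Hoxa islands, which ends at position 52190827. All 15 probes were above wild type in each clone, and the clone mean was 1.07 higher (SE 0.30, limma adjusted p = 0.0226). The second Hoxa call, region 16 (chr6:52174892-52176222, 11 probes), went from -0.60 to 0.69 in clone 210-58 and 0.10 in clone 226-47 and stood at -0.22 after PJ34. Its clone mean was 0.996 higher (SE 0.29, limma adjusted p = 0.0282). Hoxd region 4 (chr2:74459810-74460750, 8 probes) went from -0.99 to 0.29 and -0.17 in the clones, with 0.19 after PJ34. There the clone mean was 1.05 higher (SE 0.31, limma adjusted p = 0.029), and all 8 probes were above wild type in each of the other arrays. In each of the 5, clone 210-58 was further from wild type than clone 226-47.

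**Figure D2:**
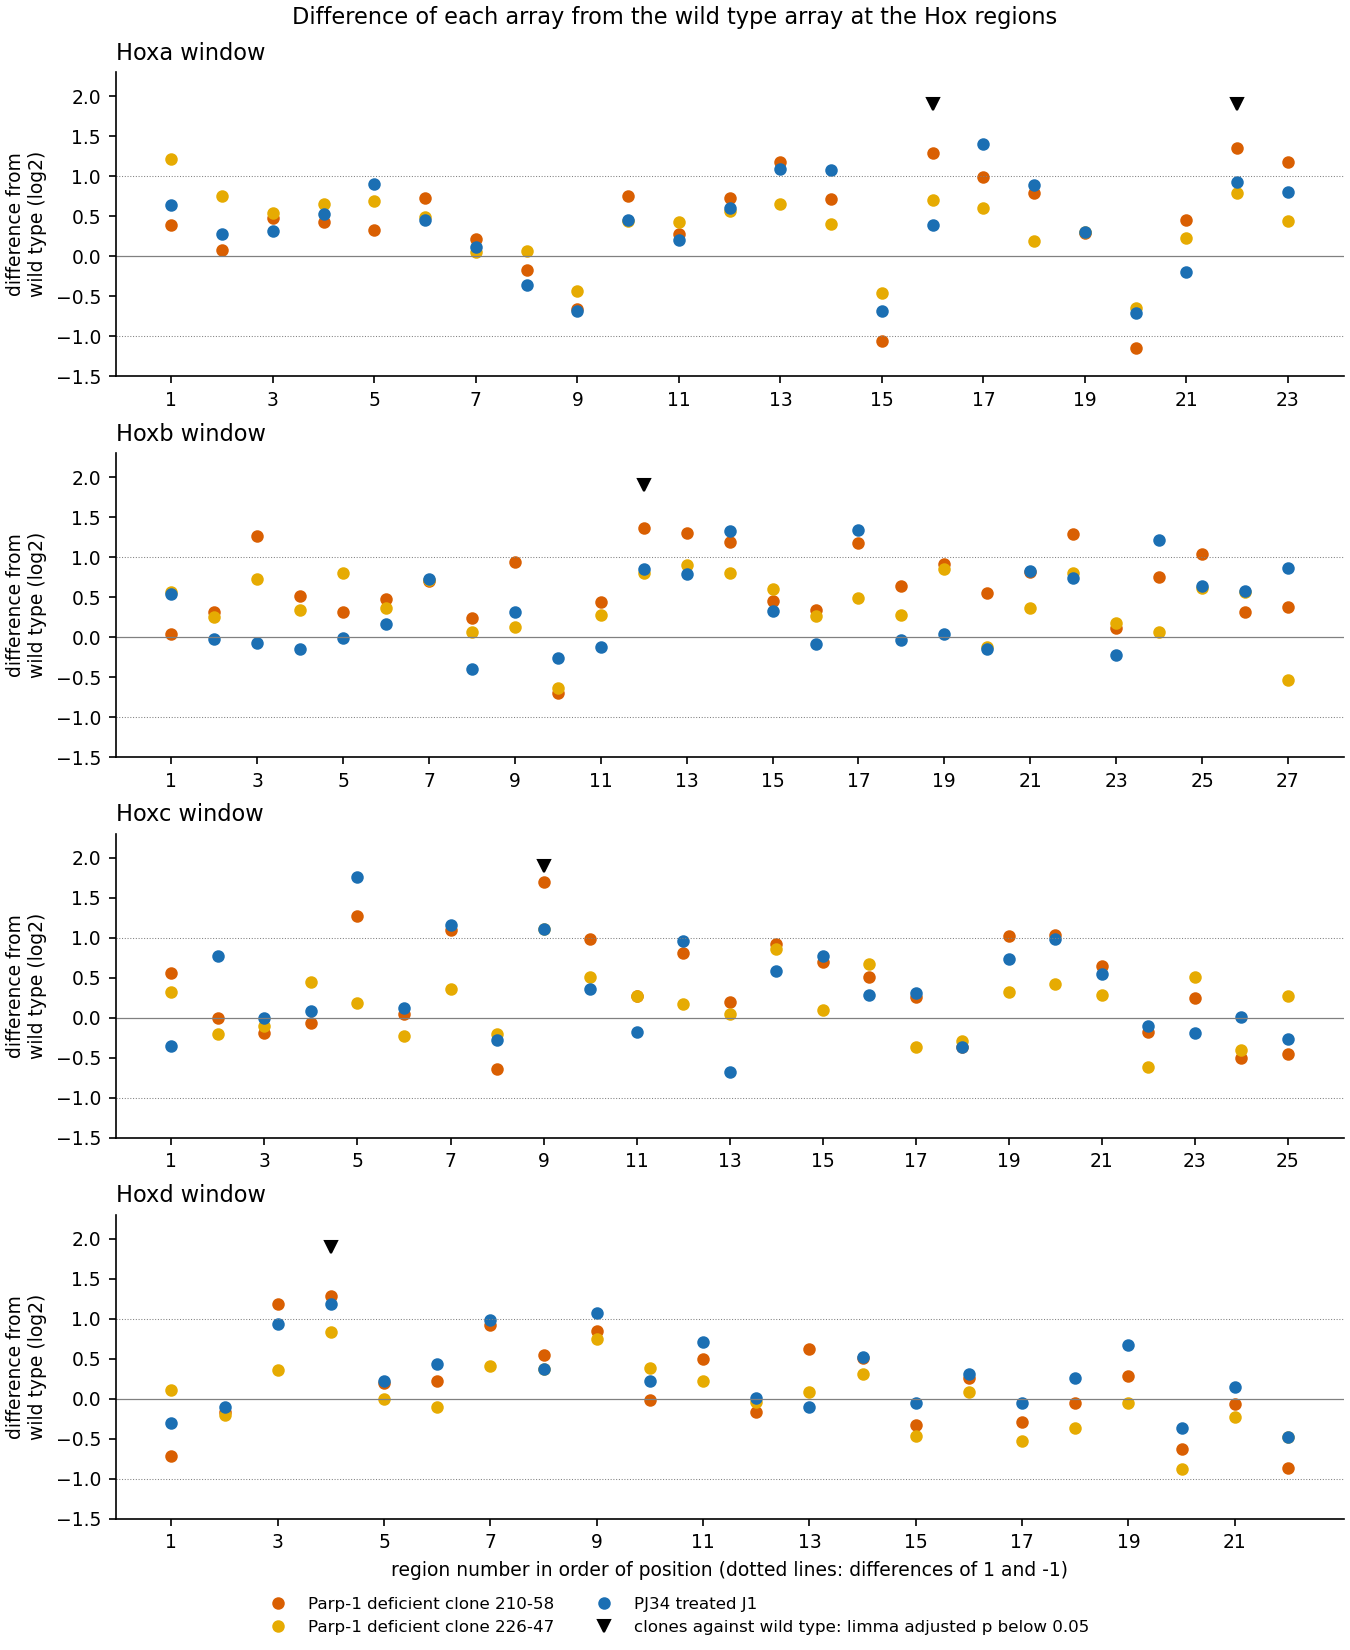
Difference of each array from the wild type array (vertical axis, log2) for the tested Hox regions in order of position (horizontal axis, region number within the window); orange, yellow and blue points are clone 210-58, clone 226-47 and PJ34 treated J1, and black triangles mark the 5 regions called in the clones. Most points lie above 0 in the Hoxa, Hoxb and Hoxc windows. In Hoxd regions 15 to 22, picked out after their values were seen, most clone points lie below 0 and PJ34 points lie on both sides.

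These calls depend on the normalization. None of the 5 passed after quantile normalization, although the differences stayed between 0.97 and 1.30. None passed after an intensity-dependent loess either, where they were smaller: 0.64 and 0.65 at Hoxa regions 16 and 22, 0.42 at Hoxb region 12, 0.95 at Hoxc region 9 and 0.61 at Hoxd region 4. Normexp background correction gave 0.46 at Hoxa region 22, 0.61 at Hoxc region 9 and 0.42 at Hoxd region 4, which were not called there. Over 10 alternatives Hoxa region 16, Hoxb region 12 and Hoxc region 9 were called in 7 each, and Hoxa region 22 and Hoxd region 4 in 4 each. These counts overstate how stable the calls were, because some alternatives hardly touch a given region. With gaps of 300 or 1000 bp, or at least 2 probes per region, the differences of Hoxa regions 16 and 22 were exactly as reported. The lowest and highest adjusted p over those alternatives were 0.0048 and 0.326 for Hoxa region 16, 0.0043 and 0.329 for Hoxa region 22, 0.0015 and 0.414 for Hoxb region 12, and 0.005 and 0.337 for Hoxd region 4. For Hoxc region 9 they were 0.00015 and 0.321.

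Several other regions were higher by about 1 in clone 210-58 without passing the test. Neighbours of the Hoxb call were among them: Hoxb region 13 (chr11:96100027-96100850) held -1.28, 0.02, -0.38 and -0.49 in wild type, clone 210-58, clone 226-47 and PJ34 treated cells (limma adjusted p = 0.0587), and region 14 (chr11:96102723-96103598) held -1.04, 0.15, -0.23 and 0.28 (adjusted p = 0.0577). Together with region 12 they form a stretch of less than 5 kb, picked out after its values were seen, in which wild type was the lowest array throughout. Further along, Hoxb region 22 (chr11:96156829-96157248) held 0.49, 1.78, 1.29 and 1.23 (adjusted p = 0.0575), and Hoxb region 25 (chr11:96162015-96162357) held -0.73, 0.31, -0.12 and -0.09. Hoxb region 3 (chr11:95850857-95851258), at -1.27, -0.01, -0.54 and -1.34, stood higher in the clones and about level with wild type after PJ34. In Hoxc, region 19 (chr15:102862753-102863073) held -0.62, 0.41, -0.30 and 0.12, and region 20 (chr15:102863669-102864040) held 0.71, 1.74, 1.13 and 1.70. Hoxd region 3 (chr2:74458432-74458925), just before the called region 4, held -1.19, -0.01, -0.84 and -0.26.

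A pair of Hoxa regions were lower by at least 1 in clone 210-58, and both were the lowest there among the 4 arrays. Hoxa region 20 (chr6:52235533-52235920, 4 probes), outside the dense stretch of Hoxa islands, held 0.42 in wild type cells, -0.73 in clone 210-58, -0.22 in clone 226-47 and -0.29 after PJ34 (limma adjusted p = 0.076). Hoxa region 15 (chr6:52169824-52170491, 5 probes) held -0.17, -1.22, -0.63 and -0.86 (adjusted p = 0.419). Every probe of both regions lay below wild type in all 3 other arrays, although neither region passed the test.

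The windows did not move alike. Median differences in clones 210-58 and 226-47 were 0.46 and 0.44 in Hoxa, 0.55 and 0.37 in Hoxb, 0.27 and 0.27 in Hoxc, and 0.21 and 0.04 in Hoxd. In Hoxb 26 of 27 regions were above wild type in clone 210-58 and 24 in clone 226-47; in Hoxa 19 and 20 of 23 were; in Hoxc 17 and 17 of 25; and in Hoxd 12 and 11 of 22. The differences between windows were not tested, having 1 array per clone.

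**Figure D3:**
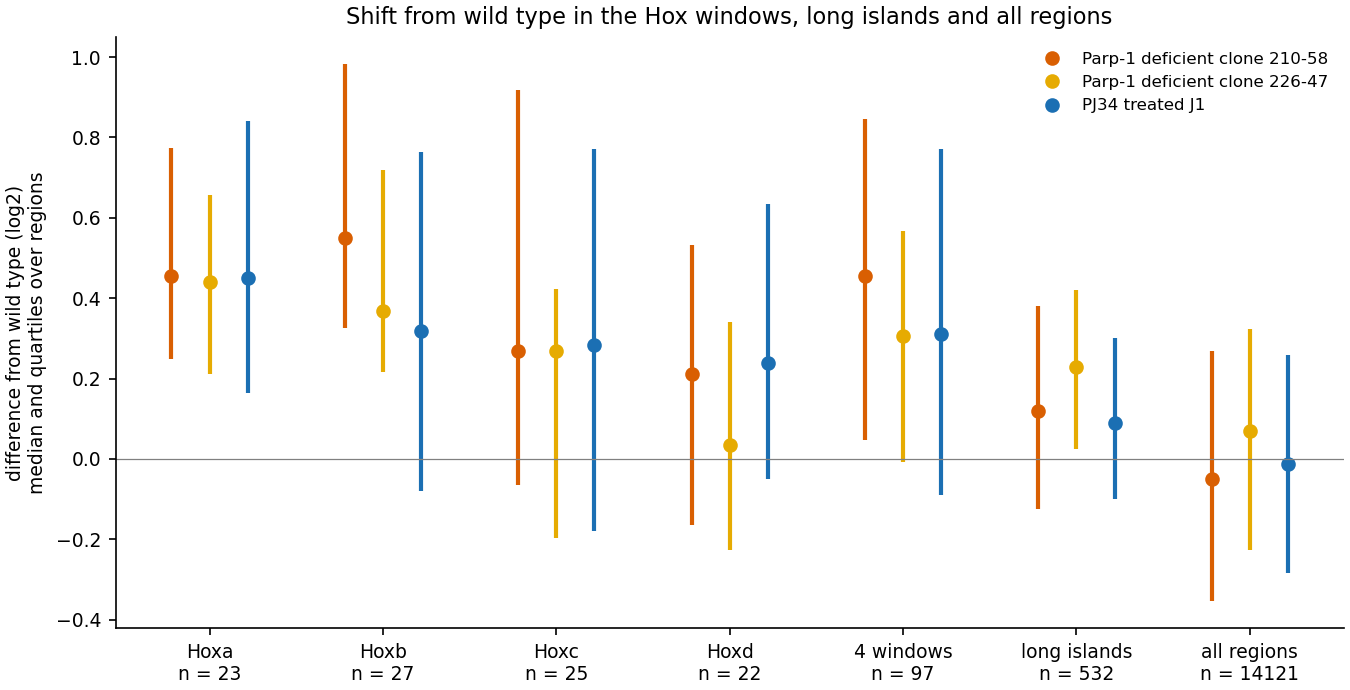
Median difference from the wild type array (points) with the quartiles over regions (bars), for each Hox window, the 4 windows together, long islands outside the windows and all regions; colours are the arrays and n is the number of regions. Hoxa and Hoxb have medians between 0.32 and 0.55 on all 3 arrays, and the medians over all regions lie between -0.05 and 0.07.

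The difference from wild type varied with the level of a region. Among the 31 Hox regions with a mean level between -1 and 0, the median difference was 0.72 in clone 210-58 and 0.56 in clone 226-47, while the 5475 regions of that level on the whole array had medians of -0.07 and 0.19. Among the 34 Hox regions between 0 and 1, the medians were 0.46 and 0.24, against 0.02 and -0.01 over 4484 regions. Between 1 and 2 there were 17 Hox regions, with 0.38 and 0.06, against -0.02 and -0.34 over 1432. At the lowest levels, below -1, clone 210-58 had a median of 0.03 with 4 of 8 Hox regions above wild type, and clone 226-47 had 0.56 with all 8 above, against -0.16 and 0.43 over 1549 regions. At levels of 2 or more, 4 of 7 Hox regions were above wild type in each clone, with medians of 0.64 and 0.27. Over the 1181 regions of that level on the whole array, 517 and 119 were above, with medians of -0.08 and -0.53. In clone 226-47 the whole array was thus compressed, with low regions higher and high regions lower than in wild type, and the Hox medians lay above those of their level on that array as well.

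The shift went with position inside some of the windows. Dense stretches, in which neighbouring regions start at most 25 kb apart, held 75 of the 97 tested regions: 18 between positions 52087848 and 52190827 in Hoxa, 19 between 96067613 and 96183195 in Hoxb, 18 between 102749463 and 102887754 in Hoxc and 20 between 74456371 and 74564736 in Hoxd. The median difference in clone 210-58 was 0.67 in the Hoxc stretch, with 15 of 18 regions above wild type, and -0.18 in the other 7 Hoxc regions, of which 2 were above. Clone 226-47 gave 0.28 and -0.10 for the same sets. In Hoxb the stretch had 0.76 and 0.37 in clones 210-58 and 226-47, and the other 8 regions had 0.39 and 0.47. The Hoxd stretch had 0.24 and 0.04, and the only 2 regions outside it had -0.79 and -0.18. For Hoxa the values were 0.46 and 0.46 inside, and 0.46 and 0.44 over the other 5 regions. Over all windows the stretches had medians of 0.51 and 0.31, and the other 22 regions 0.28 and 0.30.

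The second comparison asked whether blocking the enzyme in J1 cells for the treatment period goes with a like difference; it rests on 1 array against 1 and has no test. Levels after PJ34 were also higher over most Hox regions: the median difference was 0.31, with 65 of 97 regions above wild type, against -0.01 and 48.8% over all regions. Differences of at least 1 were seen upward in 11 Hox regions (11.3%, against 2.44% of all) and downward in none (against 1.25%). The median was 0.45 in Hoxa, 0.32 in Hoxb, 0.28 in Hoxc and 0.24 in Hoxd. Long islands outside the windows had a median of 0.09, with 63.0% above wild type, close to the Hox share of 67.0%. The sizes were less alike: 40.2% of Hox regions and 11.1% of long islands were higher by at least 0.5. Lower by as much were 4.12% and 2.44%. Since the clones and the treated cells are set against the same wild type array, any peculiarity of that array enters all 3 differences, and their likeness is no independent evidence.

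The largest difference after PJ34 was at Hoxc region 5 (chr15:102755171-102755614, 5 probes), which stood at 0.35 in wild type cells, 1.62 in clone 210-58, 0.53 in clone 226-47 and 2.11 in treated cells. All 5 probes were above wild type after PJ34, by 1.76 on average. Nearby, Hoxc region 7 (chr15:102764929-102765551) held -0.34, 0.76, 0.02 and 0.83. Clone 226-47 was above wild type by 0.18 in region 5 and 0.36 in region 7, whereas clone 210-58 and the treated cells were above it by more than 1 in both. Hoxa region 17 (chr6:52178783-52179235) held -0.64, 0.35, -0.04 and 0.75, a difference of 1.4 after PJ34 that all 5 probes shared, and Hoxa region 14 (chr6:52162924-52164716) held -0.48, 0.24, -0.07 and 0.60. Hoxb region 24 (chr11:96160091-96160505), at 1.14, 1.89, 1.20 and 2.36, and Hoxd region 9 (chr2:74488433-74488872), at -0.84, 0.01, -0.09 and 0.22, were also higher by more than 1 after PJ34.

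The remaining differences of this size after PJ34 were in regions given above: Hoxa region 13, Hoxb regions 14 and 17, Hoxc region 9 and Hoxd region 4. Within the dense stretches the median difference after PJ34 was 0.37 over 75 regions, and outside them it was -0.05 over 22. The windows differed in this. Inside and outside the stretch the medians were 0.57 and -0.02 in Hoxb, 0.46 and -0.10 in Hoxc, and 0.28 and -0.39 in Hoxd, where only 2 regions lie outside. Hoxa went the other way, with 0.42 inside and 0.65 over the 5 regions outside, of which 3 were above wild type.

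Set directly against the treated cells, the clones had no Hox region past the threshold. Limma called 0 of 97 regions, against 1.35% of all regions (0.942% higher in the clones and 0.404% lower). At an unadjusted p below 0.05, 5 Hox regions were higher and 4 lower in the clones, against 5.24% and 3.06% of all. The median difference of the clone mean from PJ34 was -0.01 over the 97 regions, with 47 above 0, against 49.2% of all. In Hoxd 20 of 22 regions were lower in the clones, with a median of -0.18, while in Hoxb 18 of 27 were higher, with a median of 0.26. A missed threshold with 3 arrays does not show that the samples are alike.

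Clone 210-58 stood above clone 226-47 in 66 of 97 Hox regions, against 42.4% of all regions, with a median of 0.19. A difference of at least 1 was reached in 1 Hox region (1.03%, against 1.41% of all), the Hoxc region 5 named above, and in none in the other direction (against 0.977%). The SD between the clones had a median of 0.23 over the Hox regions and 0.21 over all regions. In the Hox regions called against wild type this SD lay between 0.32 and 0.42, above both medians.

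Slide and sample were partly confounded. Wild type and clone 210-58 were on slide 1, and clone 226-47 and the treated cells on slide 2, so the only differences within a slide are clone 210-58 minus wild type and clone 226-47 minus PJ34. Within slide 1, 18 Hox regions were higher by at least 1 in clone 210-58 (against 3.31% of all) and 2 were lower (against 3%). Within slide 2, none was higher in clone 226-47 (against 1.10%) and 3 were lower (against 3.82%), with a median of -0.01. The lower ones were Hoxc region 5 and Hoxb regions 24 and 27 (chr11:96181904-96183195, at 1.58, 1.95, 1.04 and 2.44), the last named after its values were seen. Against the wild type array on the other slide, clone 226-47 had 2 Hox regions higher by at least 1 (against 0.963%), Hoxa region 1 and Hoxc region 9, and none lower (against 2.96%).

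Each channel was then examined on its own, since a level can move with either. In Hoxa, Hoxc and Hoxd the whole DNA signal differed from wild type by at most 0.09 in the median over probes on any array. The immunoprecipitated signal was higher by 0.52, 0.39 and 0.49 in Hoxa and by 0.20, 0.20 and 0.38 in Hoxc, in clone 210-58, clone 226-47 and PJ34 treated cells. In Hoxd it differed by -0.01, -0.03 and 0.15. The higher ratios of Hoxa and Hoxc thus came with more immunoprecipitated signal and little change in whole DNA.

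The Hoxb window of clone 210-58 was different. There the whole DNA signal was 0.49 above wild type, with 99.4% of its 166 probes higher, and all of chromosome 11 was higher by 0.49 in that clone, a gain of the whole chromosome's signal. In clone 226-47 the window differed by 0.07 and after PJ34 by 0.0013. The immunoprecipitated signal of the window rose by more than the whole DNA did in clone 210-58, by 1.11, and by 0.37 and 0.25 in clone 226-47 and treated cells. Over the 1202 regions of chromosome 11 the median level of clone 210-58 was 0.19 below wild type, while in the Hoxb window it was 0.55 above. Without the Hoxb window, the other 70 Hox regions had median differences of 0.31 in clone 210-58, 0.27 in clone 226-47 and 0.31 after PJ34, with 48, 48 and 49 regions above wild type.

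**Figure D4:**
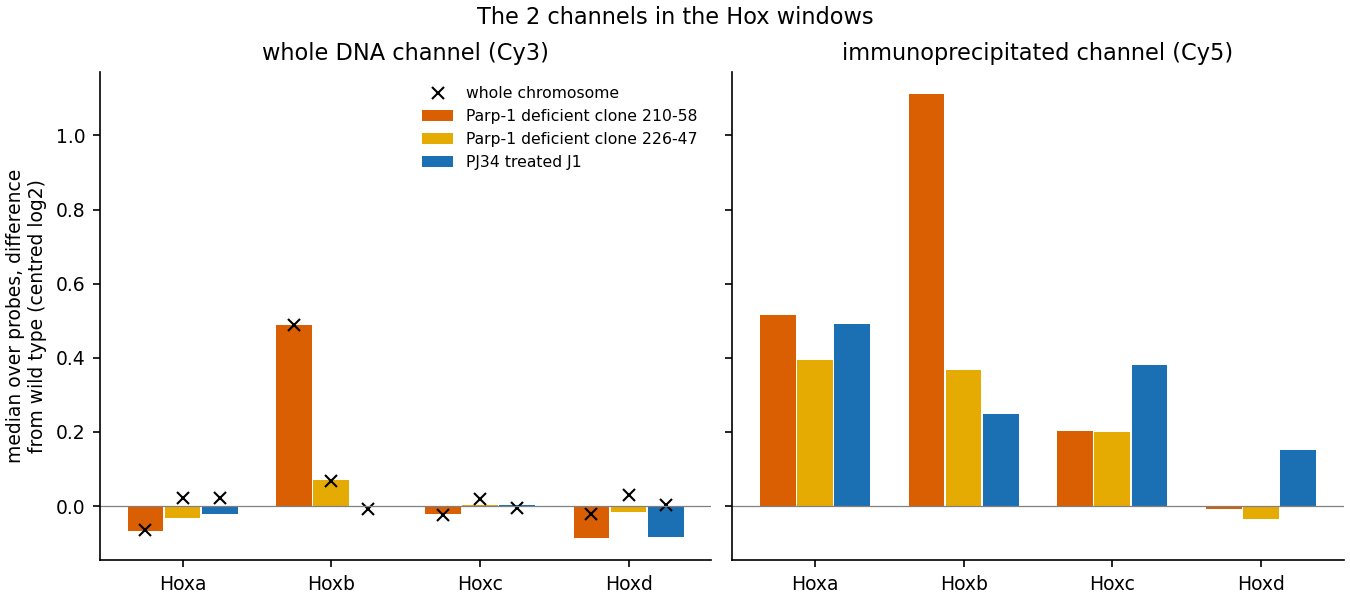
Median over the probes of each Hox window of the difference from wild type in the whole DNA channel (left) and the immunoprecipitated channel (right), as centred log2 signal; bars are the arrays and crosses are all probes of the window's chromosome. The whole DNA bar of clone 210-58 in Hoxb reaches 0.49, as does its chromosome, and the other whole DNA bars lie between -0.09 and 0.07.

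The other 56 tested regions differed from wild type by less than 1 on every array, as the rule for naming requires. Their wild type levels lay between -0.93 and 1.13 in 12 Hoxa regions, -0.87 and 2.20 in 15 Hoxb regions, -1.49 and 1.87 in 15 Hoxc regions, and -0.34 and 1.43 in 14 Hoxd regions. In clone 210-58 they differed from wild type by medians of 0.38, 0.38, 0.26 and 0.23, in the order Hoxa, Hoxb, Hoxc and Hoxd. For clone 226-47 the medians were 0.43, 0.26, 0.10 and -0.03. After PJ34 they were 0.38, -0.02, 0.01 and 0.24. The lowest limma adjusted p among them was 0.0995, in Hoxc.

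The 3 regions with 2 probes were left out of the tests. The first Hoxa pair (chr6:52098476-52098696) held 1.52, 1.09, 1.20 and 1.55 in wild type, clone 210-58, clone 226-47 and PJ34 treated cells. The second (chr6:52136206-52136328) held 0.79, 1.72, 1.24 and 1.54. The Hoxc pair (chr15:102998075-102998421) held 0.21, 0.92, 0.69 and 1.17. In the last 2 of these, wild type was the lowest array.

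The Hox median lay above that of all regions in each of the 10 settings compared, and the size of the excess varied. After an intensity-dependent loess, the Hox median of clone 210-58 exceeded that of all regions by 0.18, that of clone 226-47 by 0.19 and that of treated cells by 0.25. After normexp background correction the excess was 0.21, 0.14 and 0.21; there the median of all regions itself moved to 0.18 in clone 210-58.

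**Figure D5:**
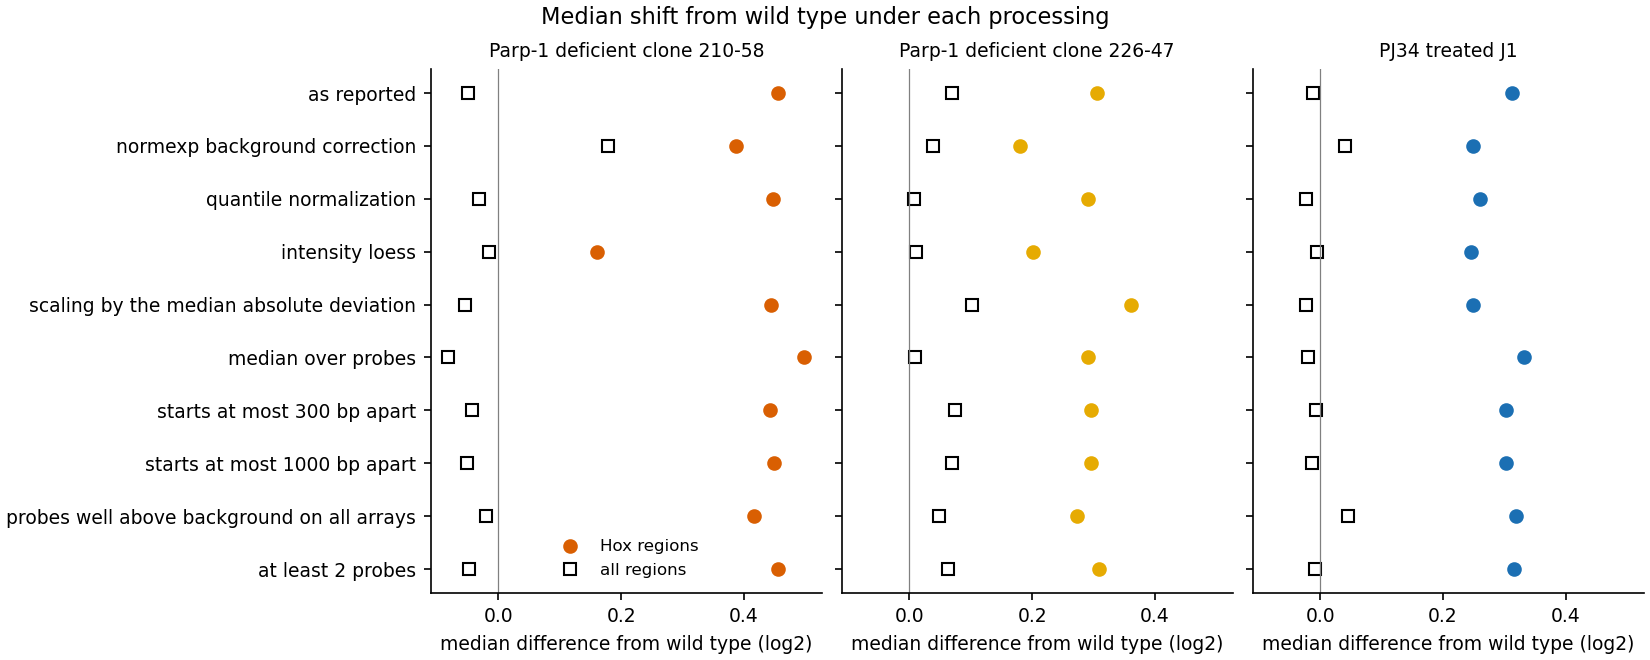
Median difference from wild type over the Hox regions (filled circles) and over all regions (open squares) on each array (panels), under each processing (rows); the horizontal axis is log2. Hox medians lie to the right of the medians of all regions in every row, closest under the loess and normexp settings.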

How the data were processed

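Agilent Feature Extraction produced the deposited intensity values of the 4 arrays, in version 10.7.3.1 per the file headers and 9.1 per the submitters' processing notes. Processed intensities are, per those headers, background-subtracted and dye-normalized by a linear factor per channel. The deposited value table holds a linear ratio, which equals processed Cy5 over Cy3 of the same array and was not used further. Immunoprecipitated DNA was Cy5 and whole DNA Cy3 on every array, per the labels, and no dye was swapped. Each array had 97651 probes and 5950 control spots; controls, 442 probes without a position and 30 flagged as outliers were left out. Cy3 was well above background for 99.7% to 99.8% of probes and Cy5 for 91.3% to 98.0%.

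Processed Cy5 over Cy3 was taken to log2, centred per array on the median, with no loess or quantile step, and averaged over the probes of a region. Clones were compared with wild type, and with PJ34, by limma 3.58.1 in R 4.3.3 (lmFit, eBayes with a mean-variance trend; 1 residual degree of freedom; threshold 0.05), after the script was tested on simulated data. The number of arrays limits the precision. Single arrays were compared by a size of 1. Regions named were, in each window, the 3 highest and 2 lowest by the mean of the arrays, every called region, and every region that differed by at least 1. The windows, members and rules were chosen with earlier results of these data known. Lists of genes outside the windows were not used, since no region could be tied to a gene.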

Additional observations from a re-analysis of the deposited data

How the results depend on the processing

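Called Hox regions (clones against wild type, 5 as reported) numbered 2 after normexp, 0 after quantile normalization, 0 after intensity loess, 14 after scaling by the median absolute deviation (13 higher, 1 lower), 3 with the median over probes, 11 with probes well above background on all arrays (10 higher, 1 lower) and 1 without the mean-variance trend. Calls over all regions were 393 as reported, 426 after normexp, 27 after quantile normalization, 0 after loess and 781 after scaling. They were 302 with the median over probes, 535 of 13656 regions with probes well above background and 182 without the trend. After normexp, Hox calls thus fell while calls over all regions rose, and the share called was not higher in the Hox windows. Hox regions higher by at least 1 after PJ34 (11) numbered 3 after normexp, 0 after loess, and 43 at a size of 0.5 in either direction. Of the 43, 39 were higher (40.2%, against 11.1% of all regions) and 4 lower (4.12%, against 11.6%). Clones against PJ34 (0 called) gave 2 calls with the median over probes (279 over all regions) and 1 with starts at most 300 bp apart (242 over all regions). Clone 210-58 against clone 226-47 (1) gave 0 after loess, 2 after scaling, 3 with the median over probes, 3 at 300 bp and 31 at a size of 0.5. Of the 31, 23 were higher in clone 210-58 (23.7%, against 10.1% of all regions) and 8 lower (8.25%, against 14.2%). For the other settings of the comparison between the clones, shares over all regions are not given here. The median wild type level moved from 0.02 to -0.14 after normexp. The median clone difference (0.41) was 0.30 after normexp and 0.20 after loess, and 0.31 without clone 210-58 and 0.46 without clone 226-47. The cause of these changes was not tested.

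No paired analysis was possible, since wild type and PJ34 treated cells had a single array each, and the labels carry no replicate numbers. A block for the slide, and leaving out a clone, left no residual degree of freedom, so these gave no test. No called difference changed its direction under these alternatives. The median wild type level of the Hox regions, close to 0, also turned negative after loess (-0.03) and with the median over probes (-0.04), and the whole DNA difference of Hoxc in clone 226-47 turned from 0.0031 to -0.0088 after normexp. Differences not called turned sign in 19 further values of single regions, the largest being Hoxc region 2 after PJ34 (0.77 to -0.03 after quantile normalization) and Hoxb region 5 in the clones (0.56 to -0.04 after normexp). Of the values of single regions, 708 stayed on their side of the threshold or within their spread, 33 moved, 15 became called and 21 lost a call. Some of those that stayed did so because the alternative left the probes of the region unchanged. Cy5 close to background limits the lowest levels.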

Other observations

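Over the 97 Hox regions, levels on pairs of arrays had Pearson correlations of 0.865 (wild type with clone 210-58) to 0.943 (clone 210-58 with PJ34 treated cells), which describe regions that share probes and base composition. Over all 14121 regions, pairs of arrays gave 0.916 (wild type with clone 210-58) to 0.960 (clone 210-58 with clone 226-47). Neighbouring Hox regions were little alike in level: over 93 neighbouring pairs the correlation was 0.177 in wild type cells, 0.161 in clone 210-58, 0.152 in clone 226-47 and 0.088 after PJ34. Hox regions were shorter than others, with a median of 511 bp against 663 bp over all regions.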
